A study of Mus musculus with 16 samples.

Results

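The transcripts described here are 5325 long non-coding RNAs (lncRNAs) of the NONCODE catalogue that lie outside the mRNA genes measured in the same mouse fat samples. They were chosen from the 77985 transcripts of the deposited lncRNA table by 3 criteria: a NONCODE identifier with no Ensembl name, a position that overlaps no gene span of the mRNA table on either strand, and a mean of at least 0.5 CPM (read counts scaled to library size) over 15 of the 16 libraries. Of 67443 NONCODE transcripts in the table, 37836 lay outside mRNA genes, and the 5325 members are 14.1% of those. The scaling uses the mRNA counts of each library, so a level or a change of an lncRNA is relative to the mRNA.

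The libraries hold total RNA of epididymal fat, the visceral fat pad beside the epididymis, from male C57BL/6 mice. The mice were 6 weeks old and about 22 g at purchase. One group stayed on a normal diet. The others received a high-fat diet (HFD) with 60% fat, which had run for 8 weeks when treatment began, and of these one group was given metformin and one resveratrol for 6 weeks. Metformin is a biguanide used against diabetes, resveratrol is a plant polyphenol, and the HFD group without a drug is the reference for both. Each group has 4 libraries, named here by group and number, and no genetic change is named for any group. A single HFD column and a single metformin column carry a code that matches no sample title. Their code prefix gives the group, and the word unmatched stands in for their number. Each code holds a pair of numbers, and libraries can share the first: normal diet 1 to 3 do, HFD 1 to 3 do, and so do metformin 1 and unmatched and resveratrol 1 and 2. HFD unmatched differs from the other HFD libraries in it. What that number stands for is not given in the labels. The titles name epididymal fat, while one protocol text speaks of retina and another of skeletal muscle. Nothing beyond the codes says that the libraries are separate animals, so the tests speak of the spread among the libraries as sequenced.

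The fat label was checked against marker genes. The sum of 11 adipocyte markers, Adipoq among them, was between 16800 and 33900 CPM in all libraries but 1. Retina markers reached at most 2.36 CPM and muscle markers at most 109 CPM. Resveratrol 4 stood apart, with 1050 CPM of adipocyte markers, 23400 CPM of epididymis principal cell markers and 11500 CPM of Crisp1, a secreted epididymal protein. Resveratrol 4 is the library left out of the mean that chose the members, and results are given with and without it. The epididymis markers (8 of 10 listed genes found, all with counts) summed to 25.9 to 53.1 CPM in the metformin libraries and 37.3 CPM in normal diet 2. They had 0.148 to 0.198 CPM with HFD and at most 7.21 CPM in the remaining libraries. Crisp1 had 14.7 to 16.1 CPM in every metformin library and at most 0.192 CPM elsewhere outside resveratrol 4. Markers of motile ciliated epithelium (13 of 15 listed genes found, all with counts) summed to 524 to 1390 CPM in normal diet 2, metformin 2, 4 and unmatched and resveratrol 2. Resveratrol 4 had 107 CPM of them, and the remaining 10 libraries 14.1 to 31.8 CPM. Spermatogenic cell markers (10 of 10 found, all with counts) summed to 2160 CPM in metformin 2, which also had the lowest adipocyte sum outside resveratrol 4, to 794 CPM in resveratrol 4 and to at most 31.9 CPM elsewhere. Macrophage markers (11 of 11 found, all with counts) summed to 4890 to 5640 CPM in HFD 1 to 3, against 1680 CPM in HFD unmatched, 1210 to 2160 CPM on the normal diet and 383 to 1610 CPM in the drug groups. Fibroblast and preadipocyte markers (7 of 7 found, all with counts) summed to 6340 to 6430 CPM in HFD 1 to 3, against 3380 CPM in HFD unmatched, 2510 to 5180 CPM on the normal diet and 1180 to 4550 CPM in the drug groups. In such whole-tissue RNA, fewer cells of a type and less RNA per cell cannot be told apart. A library held 13350585 to 20531032 counts in the mRNA table and 3550737 to 5828645 in the lncRNA table.

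NONCODE gathers non-coding transcripts from the literature and from sequencing studies, and many of its entries are unspliced fragments whose function is unknown. A lncRNA that lies between genes can be an independent transcript, a host from which microRNAs are cut, or read-through and enhancer transcription of a neighbouring gene. Where lncRNAs have a known role, many act on genes close to them, which is why the nearest gene of each member is followed below.

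Gene starts in or beside changed lncRNAs are shown first. The changes are described later for all of these lncRNAs but NONMMUT132846.1, at Mapk6, whose values are not given. Each is 300 bases of a RefSeq gene start in GRCm38.p6, read 5′ to 3′ on the gene's own strand, and capitals mark the 50 bases from the annotated start onwards. The windows of Gm36788, Gm46220 and Gm34973 overlap or lie beside lncRNAs that rose with HFD, and those of Lncpint and Mapk6 overlap lncRNAs that fell. No strand is given for the lncRNAs, so a window cannot be assigned to them as their own start. The pair that fell was chosen after their values were seen. The window of Gm36788 lies at chr6:116775191-116775490 on the minus strand and overlaps the lncRNA NONMMUT150624.1 by 244 bases. That of Gm46220, at chr10:38059091-38059390 on the plus strand, ends 106 bases before NONMMUT080010.1. The Gm34973 window (chr9:15369171-15369470, plus strand) lies within the span of NONMMUT132078.1, and the Lncpint window (chr6:31218425-31218724, minus strand) within that of NONMMUT149899.1. That of Mapk6, one of 2 windows of this kinase gene (chr9:75409967-75410266, minus strand), shares 82 bases with NONMMUT132846.1.
Gm36788 start: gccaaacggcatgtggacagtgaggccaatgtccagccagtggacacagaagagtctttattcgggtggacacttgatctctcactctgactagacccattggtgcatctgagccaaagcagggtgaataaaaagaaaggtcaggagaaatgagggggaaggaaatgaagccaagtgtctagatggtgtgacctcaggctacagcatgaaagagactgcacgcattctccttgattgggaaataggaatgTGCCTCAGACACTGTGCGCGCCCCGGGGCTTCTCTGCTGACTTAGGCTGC
Gm46220 start: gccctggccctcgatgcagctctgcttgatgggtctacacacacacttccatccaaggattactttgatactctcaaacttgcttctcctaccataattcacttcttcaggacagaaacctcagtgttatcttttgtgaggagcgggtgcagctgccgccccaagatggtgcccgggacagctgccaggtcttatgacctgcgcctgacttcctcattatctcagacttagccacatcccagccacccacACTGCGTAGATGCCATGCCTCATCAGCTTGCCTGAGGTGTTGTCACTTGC
Gm34973 start: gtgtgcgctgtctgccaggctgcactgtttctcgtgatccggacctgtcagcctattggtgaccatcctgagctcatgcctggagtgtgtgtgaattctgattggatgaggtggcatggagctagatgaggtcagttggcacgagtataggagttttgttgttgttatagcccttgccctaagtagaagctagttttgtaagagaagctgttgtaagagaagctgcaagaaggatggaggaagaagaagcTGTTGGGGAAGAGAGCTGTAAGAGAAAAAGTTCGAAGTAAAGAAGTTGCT
Lncpint start: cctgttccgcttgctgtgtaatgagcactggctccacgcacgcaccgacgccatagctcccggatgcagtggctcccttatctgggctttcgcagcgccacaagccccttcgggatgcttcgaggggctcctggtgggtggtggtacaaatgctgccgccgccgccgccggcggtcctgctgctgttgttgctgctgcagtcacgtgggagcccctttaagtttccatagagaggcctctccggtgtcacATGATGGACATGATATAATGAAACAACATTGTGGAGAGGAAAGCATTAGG
Mapk6 start: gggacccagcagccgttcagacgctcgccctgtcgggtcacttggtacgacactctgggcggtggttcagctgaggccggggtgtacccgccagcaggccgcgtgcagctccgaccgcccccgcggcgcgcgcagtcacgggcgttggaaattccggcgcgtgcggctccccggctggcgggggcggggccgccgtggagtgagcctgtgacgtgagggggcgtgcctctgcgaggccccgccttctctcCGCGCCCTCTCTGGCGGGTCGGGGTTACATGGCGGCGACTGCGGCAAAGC

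These windows were searched on both strands for 6 motifs: the TATA box (TATAAA), the E-box (CACGTG), the AP-1 site (TGANTCA), a PPAR direct repeat, a PU.1 site (GAGGAAGT) and the CCAAT box (CCAAT). None of these letter strings contains another. The Gm36788 window held 3 CCAAT matches and the Gm34973 window 2. The Gm46220 window held 1 PU.1 match and the Lncpint window 1 E-box. Among all 32851 RefSeq windows of this length, 37.4% held CCAAT, 3.2% the PU.1 site, 7.15% the E-box, 13.6% TATAAA, 7.81% the AP-1 site and 0.0396% the PPAR repeat. In all, 592 members overlapped a start window and 213 held a whole one.

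MicroRNAs are the other sequences that bear on these members, since clusters of members enclose their hairpins. They are shown as RNA with the seed, bases 2 to 8, in capitals. The mature miR-30a and miR-30c share one seed and come from Mir30a and Mir30c-2 on chromosome 1. The mature miR-29a and miR-29b share another and come from Mir29a and Mir29b-1 on chromosome 6. The let-7c hairpin Mirlet7c-2 lies 891 bp beyond a member cluster on chromosome 15. The miR-29 family is known for lowering collagen and other matrix mRNAs, and let-7 for holding back growth genes.
mmu-miR-30a-5p: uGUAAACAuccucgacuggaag
mmu-miR-30c-5p: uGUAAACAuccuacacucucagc
mmu-miR-29a-3p: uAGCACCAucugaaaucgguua
mmu-miR-29b-3p: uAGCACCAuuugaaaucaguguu
mmu-let-7c-5p: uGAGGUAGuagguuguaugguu

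Most members were low. Their mean level had a median of 1.087 CPM and an upper quartile of 2.196 CPM, 267 reached 10 CPM, 13 reached 100 CPM, 3 exceeded 500 CPM and the highest stood at 1324 CPM. The threshold was part of the rule, so these levels describe the choice. Members just inside it were NONMMUT124792.1, NONMMUT091770.1 and NONMMUT016040.2, at 0.50005, 0.50012 and 0.50021 CPM, and just outside lay NONMMUT101290.1, NONMMUT125930.1 and NONMMUT140761.1, at 0.49994, 0.49985 and 0.49979 CPM. Members were a median of 1864 bases long (quartiles 1126 and 3158, range 204 to 38878). In 4151 of them (78%) the transcript length equalled the genomic span, that is, no intron was annotated. The 13145 NONCODE transcripts that overlap mRNA genes and pass the same threshold had a median of 2.634 CPM, a median length of 2085 bases and a single-exon share of 80.1%. Members lay on 21 chromosomes, 2 of them on Y, and formed 4506 loci, of which 4067 held a single member.

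The label "outside mRNA genes" holds for the mRNA table and not for every annotation. RefSeq gene spans overlapped 2465 members, those of coding genes 923, of lncRNA genes 1535 and of pseudogenes 124. An Ensembl lncRNA overlapped 975 members, and 2679 overlapped neither RefSeq gene nor Ensembl lncRNA. The lncRNA table gives no strand, and whether counting used strand is not given in the sources used here. Reads of a member and of an overlapping or antisense transcript therefore cannot be told apart.

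The lncRNA with the highest level was NONMMUT011310.2 (GRCm38 chromosome 11, 86811828 to 86814524), 4082 bp upstream of the helicase gene Dhx40. It had 452, 1286, 1532 and 1543 CPM in normal diet 1 to 4 and 656, 1630, 1749 and 1499 CPM in HFD 1, 2, 3 and unmatched. It had 2054, 305, 1185 and 1229 CPM in metformin 1, 2, 4 and unmatched, and 1620, 949, 2177 and 27.8 CPM in resveratrol 1 to 4. The groups overlapped throughout, and resveratrol 4 and metformin 2 were the lowest libraries. The low values of normal diet 1 and HFD 1 belong to the row and not to the locus: with its 2 overlapping rows it came to 3070 CPM in normal diet 1 and 1930 to 2260 CPM in the other normal diet libraries, and to 2210 CPM in HFD 1 and 2170 to 2620 CPM in the rest of that group. Resveratrol 4 (100 CPM) and metformin 2 (954 CPM) were the lowest in the sum too.

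NONMMUT033452.2 (chromosome 19, 4062439 to 4065879), 2993 bp from the glutathione transferase gene Gstp3, had group means of 1044 ± 137, 1054 ± 334, 785 ± 233 and 662 ± 472 CPM (SD, n = 4) on the normal diet, HFD, metformin and resveratrol. Across all members, 1322 (24.8%) had their lowest and 772 (14.5%) their highest value in resveratrol 4. The rule left that library out of the mean, which favours members that are low in it. More members were highest in normal diet 2 (966, 18.1%) and normal diet 3 (846, 15.9%).

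Levels varied less in some members than in others. The SD of log2 CPM over 15 libraries had a median of 0.585 (quartiles 0.4343 and 0.8821). Among loci of at least 2 CPM, the steadiest included NONMMUT069592.2, beside the dipeptidyl peptidase gene Dpp8 at a distance of 628 bp (chromosome 9, 65083279 to 65084501). It had 17.2 to 19.5 CPM on the normal diet, 18.1 to 19.7 CPM with HFD, 17.3 to 20.1 CPM with metformin and 17.4 to 21.3 CPM with resveratrol, resveratrol 4 included at 20.8 CPM. NONMMUT032247.2 (chromosome 18, 46238848 to 46239903), 46 bp from Pggt1b, kept to 8.64 to 11.8 CPM in all 16 libraries.

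At the other end stood transcripts that were high in some libraries and at 0 counts in others of the same group. Of the 267 members at 10 CPM or more, 13 had 0 counts in at least 1 of 15 libraries, and none of the 13 was called in a comparison. NONMMUT107355.1 (chromosome 2, 75637801 to 75642926) had 252, 195, 0 and 192 CPM on the normal diet and 461, 535, 26.3 and 0 CPM with HFD. It had 221, 17.3, 117 and 147 CPM with metformin and 0, 0, 210 and 0 CPM with resveratrol. Its summed level with the single lncRNA row that overlaps it was also near 0 in those libraries, at 0.121 to 1.09 CPM. NONMMUT014255.2 (chromosome 12, 55264070 to 55267707), 234 bp from Srp54b, had 0 counts in normal diet 1 and 4 and resveratrol 1 and 2, and 7.32 to 27.7 CPM in the other 12 libraries.

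In some members the high libraries cut across the groups. NONMMUT146113.1 (chromosome 19, 38362238 to 38372552) had 45.1 CPM in normal diet 2, 29 to 36 CPM in metformin 2, 4 and unmatched, 29.7 CPM in resveratrol 2 and 90.3 CPM in resveratrol 4. No other library exceeded 0.208 CPM. NONMMUT144383.1 (chromosome 16, 44483115 to 44484930), 119 bp from the hedgehog co-receptor gene Boc, had 18.5, 21.9, 11.7, 17.3 and 11 CPM in the first 5 of these libraries and at most 0.479 CPM elsewhere. These are the libraries with high ciliated-epithelium markers, and the part of those cells in the levels was not tested. NONMMUT089106.1, 6498 bp from Eif5 (chromosome 12, 111528269 to 111531518), had 78.8 CPM in resveratrol 4, where no other library exceeded 3.17 CPM.

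**Figure D1:**
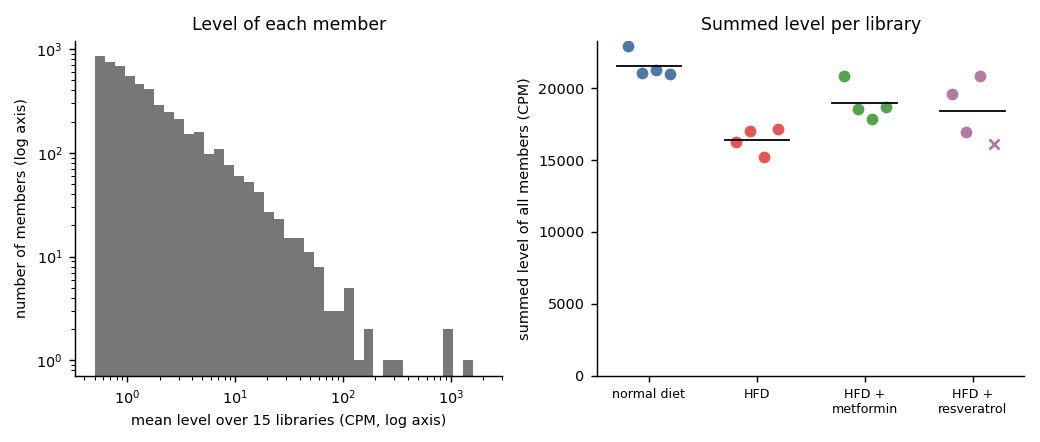
Levels and sums of the 5325 lncRNAs; one panel shows the number of members by mean CPM over 15 libraries on a log axis, the other the summed CPM of all members in each of the 16 libraries by group, with black lines at group means and a cross for resveratrol 4. All normal diet libraries (21010 to 22930 CPM) sit above all HFD libraries (15230 to 17200 CPM).

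Together the members were lower with HFD. Their summed level was 21570 ± 912 CPM on the normal diet (SD, n = 4) and 16420 ± 894 CPM with HFD, and the groups did not overlap. It was 19000 ± 1300 CPM with metformin and 18400 ± 2200 CPM with resveratrol, where resveratrol 4 was lowest at 16150 CPM. The NONCODE transcripts that overlap mRNA genes and pass the same threshold were lower with HFD too. They summed to 134800 to 161900 CPM on the normal diet and 111900 to 118500 CPM with HFD. As a share of all lncRNA counts the members made up 7.06 to 7.814% on the normal diet and 5.129 to 6.313% with HFD. They made up 6.029 to 7.852% with metformin and 5.927 to 6.79% with resveratrol.

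HFD against the normal diet asks what high-fat feeding changed in this fat pad. Of 5194 members that passed the filter on low counts, 699 (13.5%) fell and 58 (1.12%) rose at an adjusted p of 0.05. Over all 22774 lncRNA features tested the shares were 12.2% and 0.953%, so the members' shares were close to the background. The test was edgeR's quasi-likelihood test on the whole lncRNA table with Benjamini-Hochberg adjustment over all features, and 131 members were too low to be tested. The median log2 fold change was -0.584 over members, -0.474 over all features and -0.428 over the NONCODE transcripts that overlap mRNA genes. A fitted change below 0 was found for 4164 members (80.2%), against 78.4% of all features, and an unadjusted p under 0.05 for 1735 (33.4%), against 31.2%. All HFD libraries lay below all normal diet libraries in 1424 members and above them in 156, 27.4% and 3.0% of those tested, against 26.9% and 2.65% of all features.

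The count of falls rests on the scaling. When lncRNA counts were scaled to the lncRNA total in place of the mRNA total, the median over all features moved to -0.0219 and that over members to -0.142, and 129 members fell (2.49%) while 70 rose (1.35%), against 1.11% and 1.7% of all features under that scaling. Without resveratrol 4, whose spread enters the shared estimate, 1132 members fell and 129 rose (background 20.9% and 2.35%), and without HFD 3 only 285 members fell (5.46%) and 21 rose (0.402%), against a background of 4.13% and 0.316%. The share that fell grew with level, from 7.02% of the 2337 tested members of 0.5 to 1 CPM through 13% and 22.6% to 31.8% of the 267 at 10 CPM or more. The median log2 fold change did not follow: it was -0.605, -0.613, -0.538 and -0.488 in the same order. By annotation, 10% of members that overlap a RefSeq coding gene fell, 15.3% of those over a RefSeq lncRNA and 13.9% of those over no RefSeq gene.

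**Figure D2:**
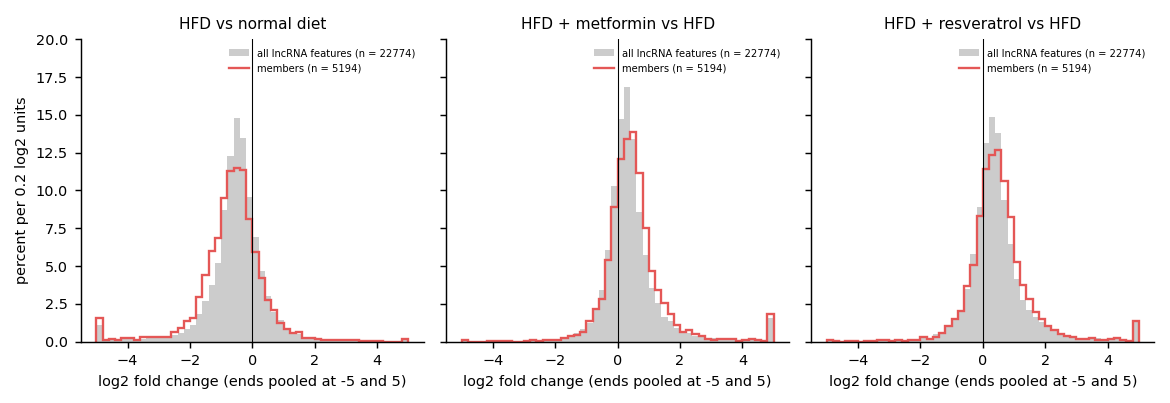
Distribution of log2 fold changes of the tested members in the 3 comparisons, beside that of all lncRNA features; the x axis is the log2 fold change (ends pooled at -5 and 5) and the y axis the percent of features per bin of 0.2. The HFD distribution has its median at -0.584 for members and those of metformin and resveratrol against HFD have theirs at 0.419 and 0.443.

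Falls came in clusters. Members no more than 20 kb apart were joined into 2507 blocks, of which 205 held 5 or more members, 1774 in all. Of the 699 falls, 357 lay in these blocks and 133 in the 3 largest. The median change was below 0 in 176 of the 205 blocks, 33 blocks held at least 3 falls and 1 held at least 3 rises. Members of a block can be pieces of one transcript and share reads, so a block is closer to 1 observation than to many.

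The largest block, 86 members over Lncpint and Gm13835 on chromosome 6 (31059281 to 31220240), encloses the Mir29a and Mir29b-1 hairpins whose seeds are shown above. Lncpint is a p53-induced lncRNA, and the microRNAs themselves are not measured by these libraries. Its members summed to 2030, 2120, 2210 and 2100 CPM in normal diet 1 to 4 and to 1020, 1010, 768 and 1230 CPM in HFD 1, 2, 3 and unmatched. The sums were 1790, 1230, 1270 and 1410 CPM with metformin and 1530, 1340, 1870 and 1260 CPM with resveratrol. All HFD libraries were below all normal diet libraries. The drug groups lay between, with metformin 2 at the level of HFD unmatched. Of the 86 members, 77 fell with HFD at a median log2 change of -1.10, where 12.2% of all features fell. Scaled to the lncRNA total, 34 fell and the median was -0.667, where 1.11% of all features fell.

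Within this block NONMMUT150367.1 (31208044 to 31212470) was a member of high level, with 147, 154, 149 and 144 CPM on the normal diet and 67.5, 65.4, 49.1 and 88.1 CPM with HFD. The log2 fold change was -1.14 (SE 0.20, adjusted p = 0.0045 by edgeR). It had 86.9 to 131 CPM with metformin and 92.5 to 140 CPM with resveratrol, which do not overlap the normal diet range and overlap that of HFD only at 86.9 CPM in metformin 4. Of the mRNA-table genes beside it, 5330406M23Rik fell as well (log2 -0.97, adjusted p = 0.00749) and Gm13835 had a log2 change of 0.03 (adjusted p = 0.88). NONMMUT149899.1, whose span holds the Lncpint start window printed above, had a log2 change of -1.67 (SE 0.32, adjusted p = 0.00592).

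On chromosome 8 (115480348 to 115680559), 42 members beside Maf, a basic leucine zipper transcription factor, summed to 198, 143, 141 and 129 CPM on the normal diet and 53.4, 61.8, 43 and 57.9 CPM with HFD. The sums were 70.5 to 86.5 CPM with metformin, all above HFD, and 120, 107, 96.2 and 26.8 CPM with resveratrol, of which only resveratrol 4 was not. With HFD 22 of the 42 fell, or 3 when scaled to the lncRNA total, against 12.2% and 1.11% of all features. Maf had a log2 change of -0.54 (adjusted p = 0.25 by edgeR).

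The block around Mir30a and Mir30c-2 on chromosome 1 (23259740 to 23321989) held 21 members, with 216, 239, 249 and 297 CPM on the normal diet and 107, 85.8, 70.8 and 149 CPM with HFD. It held 234, 166, 185 and 171 CPM with metformin and 229, 163, 248 and 187 CPM with resveratrol, above every HFD library in both groups, resveratrol 4 included. Of the 21, 20 fell with HFD (8 when scaled to the lncRNA total), against 12.2% (1.11%) of all features. NONMMUT138539.1, 593 bp from the Mir30a hairpin, had a log2 change of -1.28 (SE 0.20, adjusted p = 0.00323).

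Other large blocks differed among themselves. Of 24 members by Rab11fip2 on chromosome 19, 15 fell, and of 21 by Pcdh1 on chromosome 18 also 15. Of 24 members at Arhgap32, 11 fell. Over all features 12.2% fell. The 28 members at Lncppara, beside the let-7c hairpin, summed to 298 ± 18.5 CPM on the normal diet and 228 ± 32.6 CPM with HFD (SD, n = 4). Of these 28, 4 fell, and the block's median changed sign to 0.157 when scaled to the lncRNA total. The 25 members at Zmiz1os1 had 28.5 ± 1.90 and 27 ± 3.43 CPM, and none was called.

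**Figure D3:**
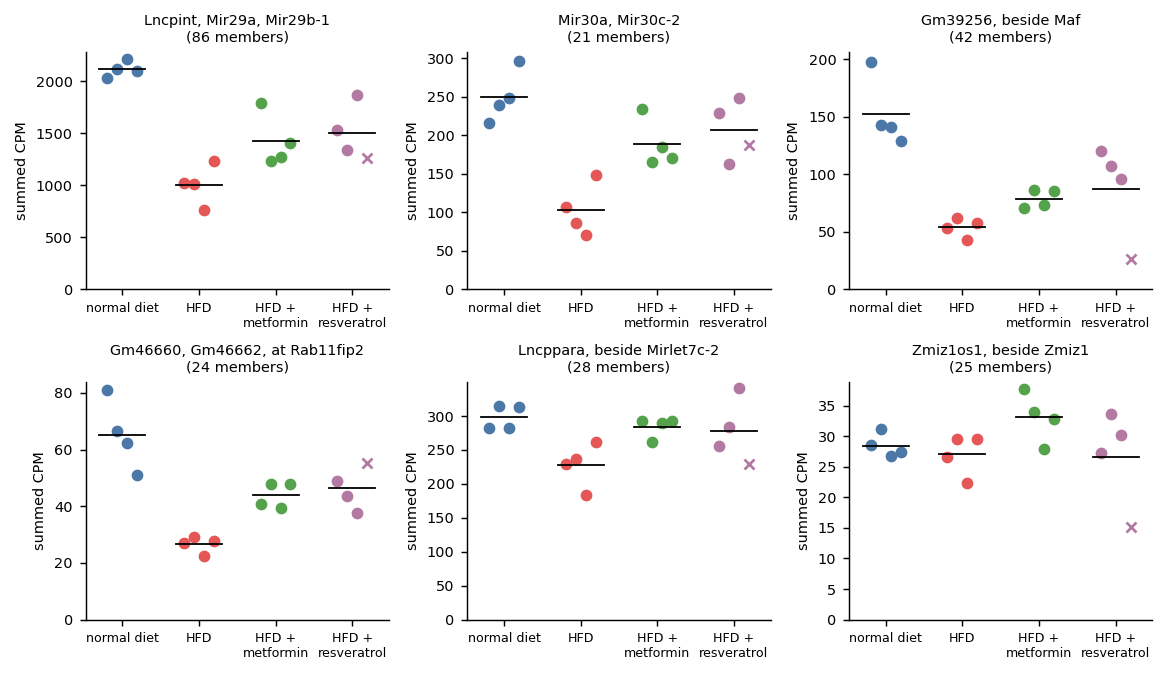
Summed CPM (linear axis from 0) of the members of 6 blocks in each of the 16 libraries, by group; each point is a library, black lines are group means and the cross marks resveratrol 4. The HFD libraries lie below all normal diet libraries in each panel except that of Zmiz1os1, as in the Rab11fip2 block at 22.4 to 29 against 51.1 to 80.9 CPM.

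Among single members, 4 of the falls ended at 0 counts in all HFD libraries. NONMMUT116144.1 (chromosome 4, 8635209 to 8644880), 27431 bp from the GTPase gene Rab2a, had 6.58, 4.53, 6.13 and 1.64 CPM on the normal diet and 0 in all HFD libraries. That is at least 116-fold lower, against a floor of 3 counts over the group. It had 0, 5.28, 2.80 and 1.97 CPM with metformin and 0, 6.67, 4.79 and 8.35 CPM with resveratrol, and the 3 rows that overlap it were at 0 with HFD as well. NONMMUT147344.1 (chromosome 3, 41083367 to 41084032), 321 bp from Pgrmc2, a membrane component for progesterone and haem binding, had 1.49 to 1.98 CPM on the normal diet and was at least 43.7-fold lower with HFD.

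For the other 2 the fall belongs to the row and not to the locus. NONMMUT013780.2 near Tssc1 had 0.934 to 1.12 CPM on the normal diet and was at least 25.0-fold lower with HFD. Its sum with overlapping rows was 1.23 to 1.92 and 1.01 to 1.09 CPM, lower in every HFD library but by far less. NONMMUT151820.1 near the adrenomedullin gene Adm had 0.625 to 1.23 CPM and was at least 24.6-fold lower. Its summed rows had 6.25 to 20.9 and 5.00 to 11.2 CPM, ranges that overlap.

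NONMMUT106571.1 (chromosome 2, 4944480 to 4949988), 5750 bp from Phyh, which encodes a peroxisomal hydroxylase of branched fatty acids, was among the most even falls. It had 14.4, 12.0, 11.2 and 11.5 CPM on the normal diet and 2.22, 2.45, 2.34 and 3.74 CPM with HFD (log2 -2.19, SE 0.23, adjusted p = 0.00113 by edgeR). It had 8.58, 5.76, 4.99 and 9.08 CPM with metformin and 6.30, 6.81, 8.57 and 5.75 CPM with resveratrol. The drug groups lay between the other groups with no overlap. Phyh had 148 ± 24.7 and 75.6 ± 24.7 CPM with the normal diet and HFD (SD, n = 4), a log2 change of -0.97 (adjusted p = 0.0964).

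Rises were fewer. The most abundant was NONMMUT056487.2 (chromosome 6, 38687514 to 38688786), 5604 bp from the kinase gene Hipk2 in the mRNA table and inside its RefSeq span. It had 59.2, 50.6, 55.8 and 58.6 CPM on the normal diet and 139, 139, 148 and 136 CPM with HFD, with no overlap (log2 1.33, SE 0.40, adjusted p = 0.0416 by edgeR). It had 74.5 to 146 CPM with metformin and 126, 105, 100 and 18.4 CPM with resveratrol. Hipk2 had 248 ± 10.3 and 573 ± 33.8 CPM (SD, n = 4, log2 1.21, adjusted p = 0.0669). The call on NONMMUT056487.2 was lost when any of the normal diet or HFD libraries was left out, at adjusted p of up to 0.106, and had an adjusted p of 0.000402 without resveratrol 4.

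NONMMUT150624.1 (chromosome 6, 116772482 to 116775434), which overlaps the Gm36788 start printed above, had 0 counts in all normal diet libraries and 2.32, 1.94, 3.38 and 1.53 CPM with HFD, at least 52.6-fold higher. It had 0.208 to 0.509 CPM with metformin and 0.424, 0.348, 0.128 and 0 CPM with resveratrol, both below every HFD library. Its call held under each library left out and each alternative scaling.

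Members far from any mRNA gene also rose. NONMMUT080010.1, NONMMUT005265.2 and NONMMUT080013.1 lie 757180 to 757193 bp from Rfpl4b on chromosome 10 (38059497 to 38063361), just after the Gm46220 start shown above. NONMMUT080013.1 had 0.541, 0.677, 0.213 and 0.701 CPM on the normal diet and 12.8, 1.27, 2.29 and 1.72 CPM with HFD (log2 3.07, SE 0.70, adjusted p = 0.0128 by edgeR), HFD 1 being the highest. NONMMUT080010.1 had 3 counts on the normal diet and 244 with HFD, 73.8-fold higher with a 95% exact counting interval of 25.0 to 360. Together with overlapping rows the locus had 0.373 to 1.09 CPM on the normal diet and 6.58 to 14.7 CPM with HFD. NONMMUT138704.1, 423943 bp from Gm29460 on chromosome 1, had 8.47 to 10.6 CPM and 12.9 to 16.5 CPM (log2 0.60, SE 0.14, adjusted p = 0.0139).

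NONMMUT133416.1 (chromosome 9, 102740600 to 102756694), over Gm5627 and 7182 bp from Amotl2, rose from 3.4, 1.77, 1.76 and 4.85 CPM on the normal diet to 37.7, 31.4, 22.5 and 35.5 CPM with HFD (log2 3.43, SE 0.92, adjusted p = 0.0271 by edgeR). Amotl2, an angiomotin-like protein of cell junctions, had 224 to 469 and 252 to 409 CPM. The lncRNA had 26.4, 4.45, 22.3 and 12.1 CPM with metformin and 14.8, 11.7, 10.7 and 0 CPM with resveratrol. NONMMUT132078.1 (chromosome 9, 15364355 to 15389830), which spans the Gm34973 start printed above, had 0.234 to 0.309 CPM on the normal diet and 3.33, 2.04, 5.00 and 1.04 CPM with HFD (log2 3.39, SE 0.46, adjusted p = 0.00184).

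A set of rises was high in HFD 1 to 3 and low in HFD unmatched. NONMMUT144341.1 (chromosome 16, 32410372 to 32411048), 1318 bp from Gm20056, had 18.3, 17.2, 24.3 and 1.59 CPM in HFD 1, 2, 3 and unmatched. It had 0.309, 0.156, 4.32 and 0.467 CPM on the normal diet, where normal diet 3 overlapped HFD, and 0.121 to 2.30 CPM in the drug groups. NONMMUT077133.1 (chromosome 1, 191287610 to 191293705), over Gm37168, had 10.5, 13.6, 8.96 and 1.59 CPM with HFD and 0.104 to 1.49 CPM on the normal diet. NONMMUT098205.1 (chromosome 16, 25045967 to 25047581), beyond Lpp, had 6.16, 9.07, 8.17 and 1.72 CPM against 0.409 to 2.03 CPM.

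The macrophage marker sum (4890 to 5640 CPM) and the fibroblast and preadipocyte sum (6340 to 6430 CPM) were also higher in HFD 1 to 3 than in HFD unmatched (1680 and 3380 CPM) and normal diet 3 (2160 and 5180 CPM, each the highest of its group). Their part in these rises, and that of the code number HFD 1 to 3 share, was not tested. The rises had adjusted p-values of 0.0319, 0.00814 and 0.00996 by edgeR. With the overlapping rows of Gm37168 added, NONMMUT077133.1 came to 11.7, 21.3, 15.2 and 8.21 CPM with HFD and to 0.232, 5.88, 6.93 and 0.584 CPM on the normal diet. Another locus behaved alike: a block of 5 members between Ankdd1a and Plekho2 on chromosome 9 (65533430 to 65548390), the block with rises named above. It summed to 24.4, 34.7, 24.8 and 10.1 CPM with HFD and 4.87, 7.44, 12.7 and 5.43 CPM on the normal diet. Of the 5, 4 rose, where 0.953% of all features rose.

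**Figure D4:**
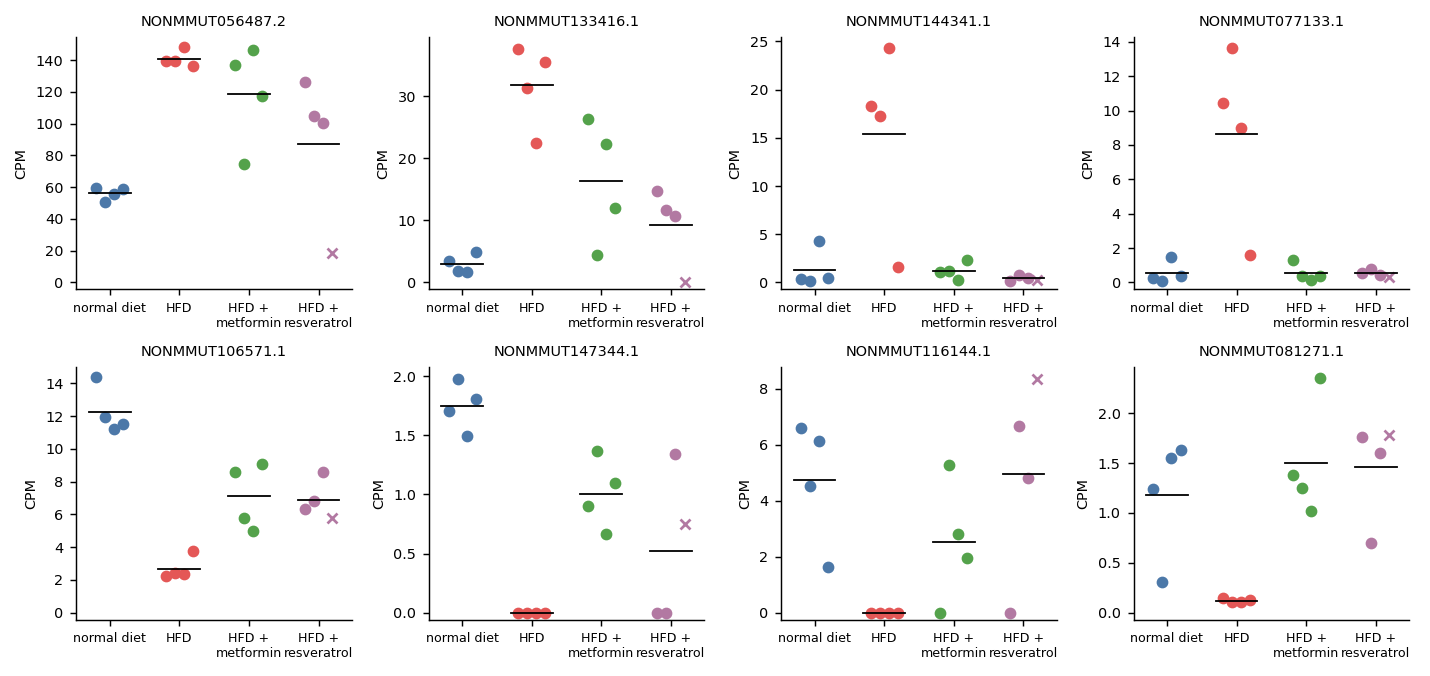
CPM (linear axes) of 8 single members in each of the 16 libraries by group; points are libraries, black lines group means and crosses resveratrol 4. NONMMUT106571.1 falls from 11.2 to 14.4 CPM on the normal diet to 2.22 to 3.74 CPM with HFD, NONMMUT056487.2 rises, and NONMMUT144341.1 is high in HFD 1 to 3 alone.

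Members lay a median of 6515 bp from the nearest gene of the mRNA table, 966 within 1 kb, 1189 at over 1 to 5 kb, 2729 at over 5 to 50 kb and 441 farther. The nearest genes were 2662 distinct ones and include small RNA genes and pseudogenes. Where the strand of the gene was known, members within 1 kb were upstream in 421 cases and downstream in 237, and over 1 to 5 kb upstream in 235 and downstream in 470.

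The calls of nearest genes were set beside those of the members. For the 563 fallen members whose nearest gene was tested, that gene fell in 115 (20.4%) and rose in 8 (1.42%). For the 49 risen members it rose in 12 (24.5%) and fell in 0. For 3727 members that were not called it rose in 161 (4.32%) and fell in 178 (4.78%). A gene can be nearest to many members: 21 of the 115 were next to 5330406M23Rik. Counted once per gene, 54 of 342 genes nearest to fallen members fell (15.8%), 12 of 38 nearest to risen members rose (31.6%), and 81 of 2016 nearest to uncalled members fell (4.02%). Both sides of the relation come from the same libraries, so no test is given.

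The nearest gene fell for 20.8%, 23.9%, 19.2% and 17.3% of fallen members within 1 kb, over 1 to 5 kb, over 5 to 50 kb and farther. For members not called the shares were 4.34%, 4.3%, 4.62% and 8.91%. These shares count members, so a gene nearest to many members, such as 5330406M23Rik, enters many times. By distance they were not counted once per gene. Within 5 kb the nearest gene fell for 19 of 80 fallen members downstream of it (23.8%) and 8 of 69 upstream (11.6%). For members not called these shares were 3.93% and 5.72%. Where a member overlapped a RefSeq coding gene and that gene was tested, 22 of 75 fallen members had a falling gene (29.3%). The same held for 30 of 685 members that were not called (4.38%).

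**Figure D5:**
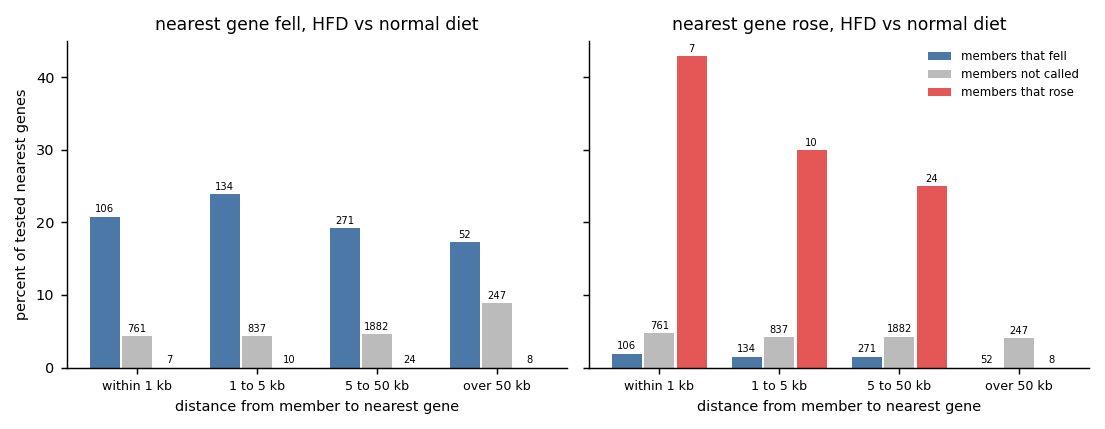
Percent of members with a tested nearest gene for which that gene fell (one panel) or rose (the other) with HFD. Members are split by distance from that gene and by whether they fell, rose or were not called. The number over each bar counts the members behind it, and a gene nearest to several members enters once for each. For fallen members the falling share is 20.8%, 23.9%, 19.2% and 17.3% from near to far.

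Among the risen pairs, NONMMUT084718.1 (chromosome 11, 120508017 to 120509250) lay 8830 bp from Slc25a10, the mitochondrial dicarboxylate carrier. It had 0, 0.156, 0.160 and 0.117 CPM on the normal diet and 2.37, 2.19, 1.93 and 1.65 CPM with HFD (log2 4.07, SE 1.01, adjusted p = 0.0192 by edgeR). Slc25a10 went from 40.9 ± 3.72 to 194 ± 40.3 CPM (SD, n = 4, log2 2.25, adjusted p = 0.00506). NONMMUT148899.1 (chromosome 5, 28032090 to 28060425) lay 10938 bp from Insig1, which holds back the sterol regulators SREBP in the endoplasmic reticulum. It had 2.40, 2.03, 1.92 and 1.34 CPM on the normal diet and 7.78, 9.79, 8.90 and 5.58 CPM with HFD (log2 2.06, SE 0.52, adjusted p = 0.0214), while Insig1 rose from 96.1 ± 7.51 to 518 ± 200 CPM. The lncRNA had 3.56 to 18.6 CPM with metformin, whereas Insig1 had 213 ± 58.8 CPM there and was lower than with HFD (log2 -1.29, adjusted p = 0.0494).

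Lists of genes known in fat tissue were searched for members within 50 kb. Lipid metabolism genes had 18 members near 7 of 24 genes, of which the member at Insig1 rose and 1 fell. That was NONMMUT146588.1 (chromosome 2, 167694902 to 167697413), 4484 bp from Cebpb, a transcription factor of fat cell formation. It had 4.56, 4.53, 5.39 and 4.20 CPM on the normal diet and 0.657, 0.408, 1.82 and 0.368 CPM with HFD (log2 -2.51, SE 0.68, adjusted p = 0.0282 by edgeR), and with its 4 overlapping rows the locus had 13.1 to 18.3 and 5.00 to 11.2 CPM. Cebpb had 24.5 ± 4.31 and 27.7 ± 2.20 CPM (SD, n = 4). Clock genes had 4 members, and the one by Nr1d1, the clock repressor REV-ERB alpha, fell: NONMMUT084333.1 had 0.693 to 1.47 CPM and 0.208 to 0.552 CPM (adjusted p = 0.0396). Both of these calls were lost when scaled to the lncRNA total, at adjusted p of 0.154 and 0.214. Nr1d1 had 133 ± 46.0 and 64.3 ± 10.9 CPM (adjusted p = 0.0714). Adipocyte genes had 2 members, by Adipoq and Lep, insulin and energy genes 4, immediate early genes 6 and developmental factors 20, and none of these was called in any comparison. The remaining 12 lists, macrophage and cilia markers among them, had no member.

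Metformin on HFD was compared with HFD alone, using the HFD libraries that also served the diet comparison. Epididymis markers summed to 25.9 to 53.1 CPM with metformin against 0.148 to 0.198 CPM with HFD, and their part was not tested. In the fit of all 16 libraries 3 members rose and 1 fell, 0.0578% and 0.0193% of 5194 (background 0.0659% and 0.0132%), while 1135 (21.9%) had an unadjusted p under 0.05, against 20.6% of all features. The median log2 change was 0.419 for members and 0.31 for all features. All metformin libraries lay above all HFD libraries in 670 members (12.9%) and below in 65 (1.25%), against 12.5% and 1.73% of all features. Without resveratrol 4, 262 members rose and 36 fell (background 4.4% and 0.753%). With lncRNA scaling 0 were called (background 0.00443% and 0.00886%) and the median was 0.137. With edgeR 0 were also called when any of 10 libraries was left out (normal diet 1 or 4, HFD 1, 2 or 3, metformin 2, 4 or unmatched, resveratrol 1 or 2). DESeq2 on all libraries called 261 that rose (5.05%) and 32 that fell (0.619%), against 3.9% and 0.705% of all features.

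The members that rose were NONMMUT081271.1, NONMMUT096520.1 and NONMMUT106571.1, the last described above near Phyh (log2 1.40, SE 0.23, adjusted p = 0.0491 by edgeR). NONMMUT081271.1 (chromosome 10, 130542055 to 130547821), over Gm31793, had 0.152, 0.102, 0.104 and 0.123 CPM with HFD and 1.38, 1.25, 1.02 and 2.35 CPM with metformin (log2 3.57, SE 0.53, adjusted p = 0.0286). It had 1.24, 0.312, 1.55 and 1.64 CPM on the normal diet and 0.695 to 1.78 CPM with resveratrol, so HFD stood alone as the low group. NONMMUT096520.1 (chromosome 15, 100328104 to 100329523), inside the RefSeq span of the methyltransferase-like gene Mettl7a1, had 0.573 to 0.969 CPM with HFD and 1.32 to 2.95 CPM with metformin. The member that fell was NONMMUT098205.1, with 0.238 to 0.820 CPM with metformin (log2 -3.82, SE 0.62, adjusted p = 0.0491) against the HFD values given above. Each of these 4 calls was lost when HFD 1, 2 or 3 was left out, at adjusted p of 0.119 to 0.221.

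Resveratrol on HFD was compared with the same HFD libraries. Here 70 members rose (1.35%) and 22 fell (0.424%), against a background of 1.6% and 0.268%. The median log2 change was 0.443 for members and 0.359 for all features, and resveratrol libraries lay wholly above HFD in 538 members (10.4%) and wholly below in 87 (1.68%), with 11.5% and 1.68% in the background. Without resveratrol 4, 120 were called and 19 of them fell (1.93% rose and 0.364% fell, background 1.95% and 0.283%). With lncRNA scaling 3 rose and 9 fell (background 0.0266% and 0.124%) at a median of 0.136. By edgeR 0 members were called when HFD 1, 2 or 3 was left out, 3 without resveratrol 2 and 6 without normal diet 1 or 2. DESeq2 on all libraries called 387 that rose (7.48%) and 50 that fell (0.967%), against 6.73% and 0.905% of all features. By edgeR 1285 members (24.7%) had an unadjusted p under 0.05, against 26.1% of all features.

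Of the rises, NONMMUT078981.1 (chromosome 1, 151330049 to 151332650), inside the RefSeq span of Gm10138, had 0.152, 0.153, 0.104 and 0.429 CPM with HFD and 1.52, 2.57, 1.15 and 8.69 CPM with resveratrol (log2 4.04, SE 0.67, adjusted p = 0.0285 by edgeR). Resveratrol 4 was the highest, and without it the log2 change was 3.04 (adjusted p = 0.023). It had 1.53 to 3.50 CPM with metformin and 1.76 to 3.85 CPM on the normal diet. Resveratrol 4 was also far above the other 3 in NONMMUT116187.1, at 4.72 against 0.485 to 0.904 CPM, in NONMMUT048469.2, at 11.8 against 1.32 to 3.07 CPM, and in NONMMUT008264.2, at 6.5 against 0.606 to 1.34 CPM. NONMMUT099125.1 (chromosome 16, 87772372 to 87775970), over Gm32925 and 39026 bp from Bach1, was more even. It had 0.727, 0.695, 0.767 and 0.890 CPM with resveratrol against 0, 0.153, 0.104 and 0 CPM with HFD (log2 3.41, SE 0.68, adjusted p = 0.0382).

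In the Lncpint and Mir30a blocks 9 of 86 and 8 of 21 members rose with resveratrol, where 1.6% of all features rose. Members of a block can share reads, so these counts are not separate observations. Like all resveratrol calls, they were lost when HFD 1, 2 or 3 was left out.

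The falls included all 5 members of the Ankdd1a block, where 0.268% of all features fell. The block's sum was 5.76, 6.39, 5.56 and 2.60 CPM with resveratrol against 10.1 to 34.7 CPM with HFD. NONMMUT134570.1 of that block had 3.43, 5.96, 3.70 and 0.919 CPM with HFD and 0.424, 0.487, 0.447 and 0 CPM with resveratrol (log2 -3.34, SE 0.65, adjusted p = 0.0368 by edgeR). NONMMUT144341.1, NONMMUT077133.1 and NONMMUT098205.1 also fell, at 0.121 to 0.767 CPM. For NONMMUT077133.1 the level near 0 belongs to the row and not to the locus. With the overlapping rows of Gm37168 added it had 6.48, 7.44, 6.97 and 0.342 CPM with resveratrol, against 8.21 to 21.3 CPM with HFD. The macrophage sum was 1190 to 1450 CPM in resveratrol 1 to 3 and 383 CPM in resveratrol 4, the fibroblast and preadipocyte sum 2590 to 4010 CPM and 1180 CPM, and their part was not tested. NONMMUT100576.1 (chromosome 17, 6096088 to 6100405), 6032 bp from Tulp4, had 0 counts in all resveratrol libraries and 0, 0.357, 0.885 and 1.16 CPM with HFD, at least 11.7-fold lower. The groups touched at 0 in HFD 1. This fall belongs to the row and not to the locus, since with its 2 overlapping rows it had 1.33, 0.556, 0 and 1.51 CPM with resveratrol and 0.606, 1.02, 1.09 and 1.47 CPM with HFD. Of 20 fallen members whose nearest gene was tested, that gene fell for 8 (40%), against 50 of 4275 members that were not called (1.17%). Of 44 risen members it rose for 1 (2.27%), against 0.538% of those not called. These counts are of members, some of which share a block and a nearest gene. They were not counted once per gene.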

How the data were processed

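Read counts per transcript in an lncRNA table and an mRNA table were used as the authors deposited them, whole and not normalised, next to FPKM columns that the deposited tables also hold. FPKM served only to check which count column a heading stands for, and 4 FPKM columns with no count column were not used. Fastp, HISAT2 and GRCm38 are named in the submitters' processing notes, without their roles. Which tool counted the reads, and whether by strand, is not given in the sources used here. Libraries were made with a TruSeq RNA kit, per the labels. None of 24 replicate pairs looked like a library deposited more than once, with chi-square over its degrees of freedom of 6.64 to 39.1. This does not show that they are separate animals.

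Library sizes and TMM factors came from the mRNA table. edgeR 4.0.16 (R 4.3.3) quasi-likelihood tests with robust dispersion were fitted over all 4 groups on 22774 lncRNA features kept by its filter on low counts and likewise on the mRNA genes, with Benjamini-Hochberg adjustment over all features and a threshold of 0.05. CPM use the same sizes, and the prior count was 2. Folds against a group at 0 use a floor of 3 counts over the group, and 95% exact intervals cover counting error only. Alternatives were DESeq2 1.42.0, other scalings, no filter and each library left out. The 16 libraries fall into 4 groups of 4 by their titles or column codes.

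Named members were the 10 loci of highest level, the 10 largest called rises and falls per comparison, the 5 most and least variable loci, the 5 highest in resveratrol 4 relative to other libraries, the 5 called loci farthest from genes, those at the 0.5 CPM threshold, and called members near listed genes. NONMMUT149899.1, NONMMUT132846.1, NONMMUT138539.1 and the blocks described were chosen after their values were seen. Some members that this rule names are not reported here. Members and gene lists were chosen with earlier results of these data known.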

Additional observations from a re-analysis of the deposited data

Results flagged for a closer look

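In 42 of 276 groups of 4 libraries examined, the highest or lowest library stood far from the other 3, beyond Dixon's 95% limit for its gap over the range. Chance gives about 1 in 20, but many of these groups belong to members named for extreme or variable values, so the share says nothing beyond them. The library that stood apart was resveratrol 4 in 11 of them, normal diet 2 and resveratrol 2 in 6 each and HFD unmatched in 5. The values below are CPM.

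The summed level of all members was 22930 in normal diet 1 against 21010 to 21270 in its group. In resveratrol 4 the members chosen for a high ratio there were at 78.8 (NONMMUT089106.1), 41.1 (NONMMUT056286.2), 28.7 (NONMMUT142112.1), 25.9 (NONMMUT058800.2) and 11.9 (NONMMUT113340.1), against at most 2.00 in resveratrol 1 to 3. Members that rose with resveratrol were also high there, at 4.72 (NONMMUT116187.1), 3.97 (NONMMUT078979.1), 11.4 (NONMMUT078982.1), 11.8 (NONMMUT048469.2) and 6.5 (NONMMUT008264.2), with at most 3.07 in the others. NONMMUT134570.1 was at 0 in resveratrol 4 and at 0.424 to 0.487 in the other 3. The epididymis markers of that library, 23400, stand beside these values, and their part was not tested.

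Normal diet 2 and resveratrol 2, which have high cilia markers, stood apart at 45.1 for NONMMUT146113.1 (normal diet), 18.5 and 11 for NONMMUT144383.1, 1.09 and 1.25 for NONMMUT030771.2, 1.25 for NONMMUT148377.1 (normal diet) and 2.08 for NONMMUT056286.2 (normal diet). Resveratrol 2 also stood apart at 1.04 for NONMMUT005265.2, 1.53 for NONMMUT080010.1, 0.695 for NONMMUT081271.1 and 17.4 for NONMMUT069592.2. Normal diet 2 had 0.052 for NONMMUT051468.2, where its group was at 0.

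HFD unmatched, the library with the lowest macrophage sum (1680) and fibroblast and preadipocyte sum (3380) of its group, had 167 for NONMMUT017649.2, 118 for NONMMUT053951.2, 3.74 for NONMMUT106571.1 and 0.0613 for NONMMUT148377.1. It had 0.429 for NONMMUT078981.1. Normal diet 3, with the highest of both sums in its group, had 4.32 for NONMMUT144341.1, and 83.3 for NONMMUT053951.2. Whether RNA of these cells has a part in them was not tested.

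Single libraries accounted for the rest: 12.8 for NONMMUT080013.1, 0.101 for NONMMUT056286.2 and 0.354 for NONMMUT016040.2 in HFD 1, and 0.0521 for NONMMUT144383.1 in HFD 3. Metformin 1 was at 0 for NONMMUT013780.2, and metformin 2 had 4.39 for NONMMUT078982.1 and 0.297 for NONMMUT124792.1. Resveratrol 1 had 89.8 for NONMMUT053951.2, resveratrol 3 had 210 for NONMMUT107355.1 and 1.09 for NONMMUT091770.1, and normal diet 4 had 4.5 for NONMMUT038227.2.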

How the results depend on the processing

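The number of members called with HFD, 757 in all, came to 199 with library sizes of the lncRNA table, 327 with no filter on low counts and 458 among members at least 5 kb from mRNA genes, a smaller set. Leaving out 1 library gave 306 (HFD 3) to 1261 (resveratrol 4), with 429, 480 and 461 without normal diet 1, 2 and 3 and 392 and 416 without HFD 1 and 2. Calls over all features moved as well. They were 2775 falls and 217 rises in the main fit, 251 and 383 with lncRNA library sizes and 1058 and 88 with no filter. Without normal diet 1, 2 and 3 the falls over all features were 1608, 1623 and 1594. Without HFD 1, 2 and 3 they were 1378, 1544 and 1006, and without resveratrol 4 they were 5031. For metformin, with 4 calls, the count was 0 with lncRNA library sizes, 0 with no filter, 293 with DESeq2, 17 without the libraries rich in cilia or epididymis transcripts and 23 with title-matched columns only. The count ran from 0 to 298 (resveratrol 4) when 1 library was left out, with 45 without HFD unmatched. Over all features 15 rose and 3 fell in the main fit, and 912 and 165 with DESeq2. Title-matched columns gave 54 and 32. Leaving out resveratrol 4 gave 1058 and 181, and leaving out HFD unmatched 130 and 54. For resveratrol, with 92 calls, the count was 12 with lncRNA library sizes, 0 with no filter and 437 with DESeq2. It was 0 (HFD 1, 2 or 3) to 181 (resveratrol 1) when 1 library was left out. Over all features 364 rose and 61 fell in the main fit, 6 and 28 with lncRNA library sizes and 1852 and 249 with DESeq2. Leaving out resveratrol 1 gave 785 and 83. The fit without cilia-rich or epididymis-rich libraries kept resveratrol 1 and 3 of that group, and the members' median log2 change against HFD was 0.386. With lncRNA scaling the median log2 change over all features was -0.0219 for HFD, 0.0193 for metformin and 0.0409 for resveratrol. The cause of the shifts in counts was not tested. Scaling levels to the lncRNA total raised the members at 0.5 CPM from 5325 to 13116 by construction. Among 70 called pairs of a named member and a comparison, none changed direction under the alternatives run, DESeq2 kept all 70, lncRNA scaling 37 of the 68 it tested and no filter 27, and 24 kept their call whichever library was left out. With the nearest gene sought only among tested genes, it moved in the member's direction for 142 of 699 fallen and 14 of 58 risen members. Most members have few counts, which limits what a single-member test can detect. No paired analysis was possible because the replicate numbers in the labels mark no shared animal, litter or day, and 2 columns carry no matched number.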

Other observations

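A pair of transcripts with one span held its counts in different rows from library to library. NONMMUT053951.2 and NONMMUT053952.2 share the span 113606767 to 113611626 on chromosome 5, 728 bp from Cmklr1, the receptor for chemerin. The first had 0, 4.63, 83.3 and 0 CPM in normal diet 1 to 4, and the other 0.0774, 0, 0 and 181 CPM. In metformin 1, 2, 4 and unmatched the first had 176, 57.7, 6.21 and 125 CPM and the other 0 in all. The total was not constant. Both rows were near 0 in normal diet 1 and in resveratrol 3 (0 and 0.0639 CPM). With all overlapping rows the sum ran from 0.541 to 182 CPM. How counts were shared between such transcripts is not given in the sources used here.

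Other members were at 0 in a single library and steady elsewhere. NONMMUT144783.1 (chromosome 17, 15066471 to 15074353), 2239 bp from Ermard, had 13.6 to 21.9 CPM in the other libraries outside resveratrol 4 and 0 in metformin 4. There the sum with its overlapping rows was 6.41 CPM. NONMMUT131734.1, in the block beside Maf, was at 0 in HFD 3 and at 7.17 to 28.1 CPM in the other libraries outside resveratrol 4, with no other row overlapping it.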
